A study of Mus musculus with 4 samples.

Results

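The 10 genes described here encode core components of the Notch pathway: the ligands Dll1, Dll4, Jag1 and Jag2, the receptors Notch1, Notch2, Notch3 and Notch4, and the target genes Hey1 and Heyl. They were chosen by name from the 32285 genes of the count matrices, and all 10 were measured. The samples were 4 single-cell RNA-seq libraries (10x Genomics 3′ v3 chemistry) of digit tissue from wild-type FVB/NJ mice aged 8 weeks, with 1 library per group and no transgene, drug or mutant allele in any group. The groups were unamputated digits and digits taken 12, 17 or 28 days post-amputation (dpa) through the second phalanx (P2), a level at which the mouse digit scars and does not regrow. Enzymatic digestion (trypsin, then collagenase I) and removal of red blood cells came before a sort for live cells, which exclude propidium iodide. Animals of both sexes were pooled according to the labels.

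Notch signalling works between touching cells. A Delta-like or Jagged ligand on one cell binds a Notch receptor on its neighbour, the receptor is cleaved by an ADAM protease and then by gamma-secretase, and the freed intracellular domain enters the nucleus and joins RBPJ and a Mastermind-like coactivator to switch on target genes of the Hes and Hey families. In blood vessels the pathway is known for arterial identity and tip cell selection in the endothelium and for the maturation of pericytes and smooth muscle, in which Notch3 is the characteristic receptor. In skin it is known for the move of keratinocytes from the basal to the suprabasal layer.

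After filtering, 34949 cells remained: 10400 in the unamputated library, then 6510, 7919 and 10120 at 12, 17 and 28 dpa. The median depth per cell was 11600, 9544, 8501 and 6658 unique molecular identifiers (UMIs, 1 per captured transcript) in that order, so levels are given as counts per 1e6 UMIs (CPM) of all UMIs summed over the cells of a class. The cells formed 29 clusters. A class is called "X-like" from its marker genes, and 28 of the clusters received one of 18 class names. The other keratinocyte-like class joined cluster 15, led by Krt15, Krt17 and Krt25, and cluster 21, led by Cenpf, Top2a and Hist1h1b. From unamputated to 28 dpa cluster 15 held 314, 127, 114 and 485 cells and cluster 21 held 187, 76, 146 and 315. Each library held cells of essentially 1 sex, against the pooled label: cells with only Y-linked UMIs were 8090 in the unamputated, 4617 in the 17 dpa and 4758 in the 28 dpa library and 0 at 12 dpa, whereas cells with only Xist UMIs were 3530 at 12 dpa and 1, 0 and 0 in the other libraries. The 12 dpa values therefore cannot be told apart from a difference in sex. Library pairs shared between 19 and 87 cell barcodes. With 1 library per group no difference below has a replicate check and no test was possible; the intervals are exact 95% Poisson or binomial intervals that cover counting error only. All 3 post-amputation comparisons share the unamputated library.

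Most of the genes had a home in 1 or 2 tissues. Dll4 was an endothelial gene: 91.2% to 97.7% of its UMIs lay in endothelial-like cells, depending on the library. Notch3 and Heyl belonged to the mural cells, the pericyte-like and smooth muscle-like cells that wrap vessels, which held 85.4% to 89.5% of the Notch3 UMIs and 75.7% to 85.7% of the Heyl UMIs. Notch4 was mainly endothelial, with 71.2% to 90.7% of its UMIs there. Jag2 was divided between keratinocyte-like cells (43.1% to 75.9%) and endothelial-like cells (15.3% to 49.4%), and Jag1 between mural, keratinocyte-like and fibroblast-like or tenocyte-like cells. Of the 10 genes, 5 had the same highest class in all 4 libraries: Dll4, Notch4 and Hey1 in capillary or arterial endothelial-like cells, Jag1 in smooth muscle-like cells and Jag2 in basal keratinocyte-like cells. The number was 6 without the 12 dpa library. UMIs of 3′ libraries are not comparable between genes, so each order below is an order of classes within 1 gene.

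**Figure D1:**
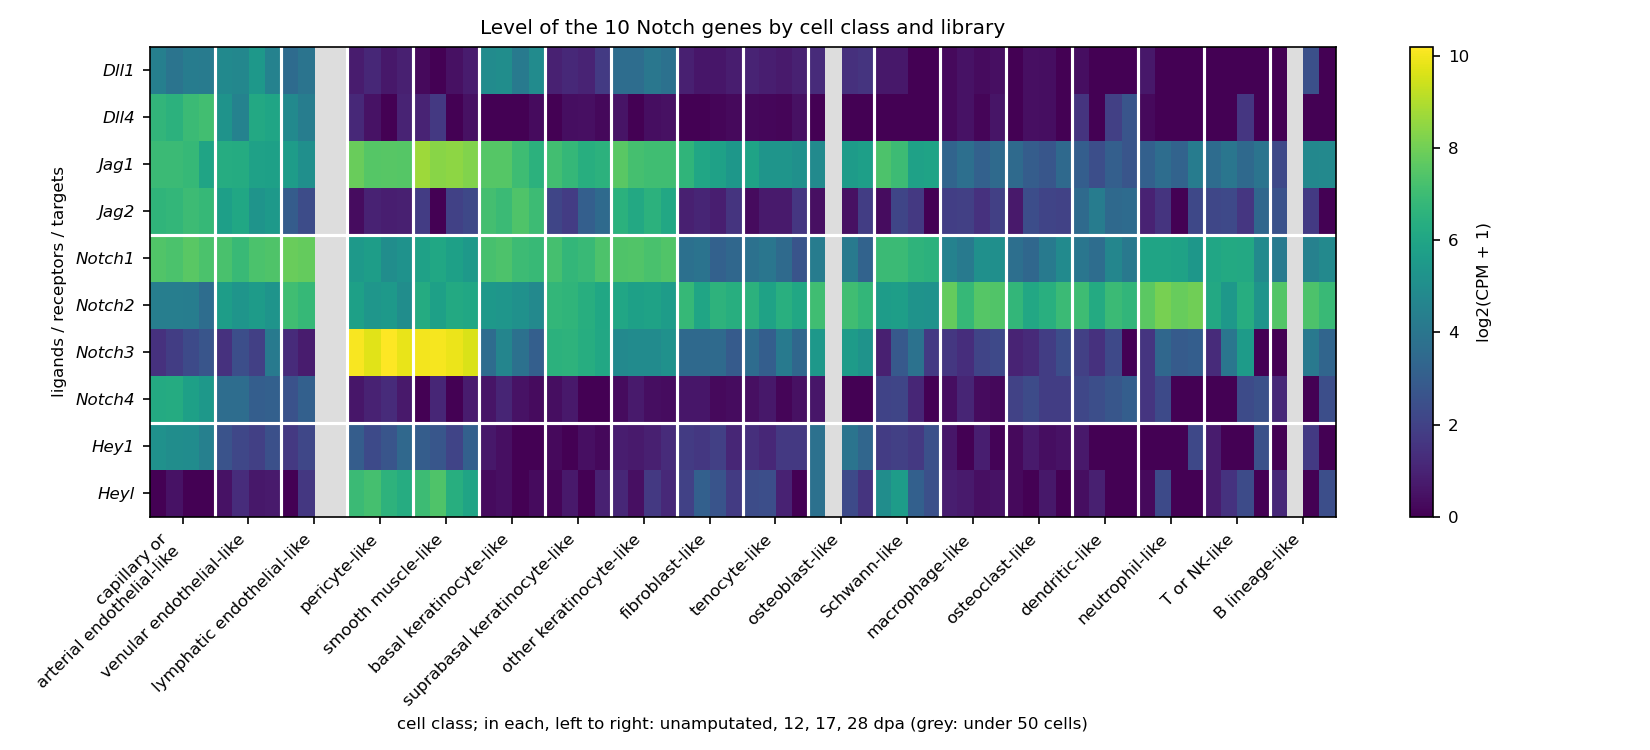
Level of each of the 10 genes (rows) in each cell class (columns, 4 libraries side by side from unamputated to 28 dpa), coloured by log2(CPM + 1); grey marks class and library pairs under 50 cells. Dll4 and Notch4 stand out in the endothelial columns, Notch3 and Heyl in the pericyte-like and smooth muscle-like columns, and Notch2 is spread over most classes.

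Promoters of 8 of the 10 genes were found in RefSeq (GRCm38.p6) as windows of 300 bases, from 250 before to 50 after the start, with 2 windows for Dll1. Those of Dll4 and Notch4, the most endothelial members, and of Notch3, the most mural of these 8, are printed because their levels separate the classes most clearly among these 8. No promoter was found for Hey1 or for Heyl, whose mural share at 28 dpa was 85.7% against 85.4% for Notch3. Capitals mark the motif matches found, on either strand.
Dll4, chr2:119325534-119325833, plus strand: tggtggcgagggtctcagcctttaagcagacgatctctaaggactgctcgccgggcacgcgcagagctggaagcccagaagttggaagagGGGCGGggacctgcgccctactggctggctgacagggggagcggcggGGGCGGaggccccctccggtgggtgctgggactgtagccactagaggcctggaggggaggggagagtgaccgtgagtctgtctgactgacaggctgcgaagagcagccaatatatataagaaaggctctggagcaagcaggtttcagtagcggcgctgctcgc
Notch4, chr17:34564045-34564344, plus strand: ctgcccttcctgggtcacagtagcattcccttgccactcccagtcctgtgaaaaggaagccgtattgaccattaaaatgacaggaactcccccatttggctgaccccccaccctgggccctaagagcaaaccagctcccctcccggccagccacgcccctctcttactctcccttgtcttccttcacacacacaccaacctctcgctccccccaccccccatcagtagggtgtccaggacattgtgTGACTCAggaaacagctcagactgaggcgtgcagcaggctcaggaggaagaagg
Notch3, chr17:32166841-32167140, minus strand: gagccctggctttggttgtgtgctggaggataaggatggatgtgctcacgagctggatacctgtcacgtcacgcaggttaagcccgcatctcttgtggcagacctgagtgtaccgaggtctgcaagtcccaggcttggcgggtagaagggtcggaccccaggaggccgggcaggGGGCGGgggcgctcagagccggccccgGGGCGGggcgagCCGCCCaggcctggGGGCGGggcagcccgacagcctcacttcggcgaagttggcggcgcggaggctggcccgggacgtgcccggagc
Each motif was searched on both strands. The core bound by RBPJ, the DNA-binding partner of the Notch intracellular domain, is TGGGAA and had no match in any of the 9 windows; 25.6% of all 32851 promoter windows of this length hold it. The E-box CACGTG, which is held by 7.15% of all windows, also had no match in the 9. The 2 other motifs were chosen after the sequences had been seen, and neither overlaps the first pair. GC boxes, spelled GGGCGG, were found in the windows of Dll4, Notch1, Notch2, Notch3 and Jag2, against 35.7% of all windows. An AP-1 site, spelled TGACTCA, was found in that of Notch4, against 5.20% of all windows. A match is a string of letters and not a shown site.

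Dll4 (chr2:119325784-119335962, GRCm38, plus strand) encodes the endothelial Delta-like ligand of sprouting and arterial vessels. In capillary or arterial endothelial-like cells it measured 103.9 CPM unamputated (95% interval 97.8 to 110), and then 91.2 (83.0 to 100.1), 121 (106 to 137) and 137 CPM (119 to 157) at 12, 17 and 28 dpa. The 28 dpa library was thus the highest and its interval did not overlap the unamputated one, with a log2 ratio of 0.40 (0.18 to 0.62). Venular endothelial-like cells had lower Dll4 in every library, at 36.8, 21.6, 70.4 and 61.8 CPM from unamputated to 28 dpa. Their log2 ratios at the 3 times were -0.74, 0.92 (0.62 to 1.25) and 0.73 (0.39 to 1.09). The first was -0.01 with finer clusters and the last 2 were 0.33 and 0.11 under a stricter cell filter, so the venular difference depended on which cells were kept. Among cells thinned to 2000 UMIs, a Dll4 UMI was found in 17.1%, 13.5%, 17.6% and 22.7% of capillary or arterial endothelial-like cells, against 0.111% of unamputated neutrophil-like cells, which served as background. Gm14207 overlaps Dll4 on the opposite strand, as other genes overlap Dll1, Notch1, Notch3 and Notch4, and whether counting used the strand is not given in the sources used here.

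Dll1 (chr17:15367354-15376872, minus strand), a Delta-like ligand of epithelial and other progenitors, was found in keratinocyte-like and endothelial-like cells. Basal keratinocyte-like cells measured 29.4, 30.8, 17.5 and 29.1 CPM in the unamputated, 12, 17 and 28 dpa libraries, and venular endothelial-like cells measured 27.4, 25.6, 41.7 and 22.1 CPM. The 17 dpa library stood apart in both classes, in opposite directions: the log2 ratio to unamputated was -0.72 (-1.25 to -0.28) in basal keratinocyte-like and 0.59 (0.20 to 1.00) in venular endothelial-like cells. These ratios rest on 43 and 74 UMIs at 17 dpa. These 2 classes did not differ beyond their counting intervals in the unamputated library. Their neighbours did not follow them at 17 dpa: capillary or arterial endothelial-like cells held 19.8, 14.3, 18.1 and 17.7 CPM (log2 ratio -0.12 at 17 dpa) and the other keratinocyte-like cells 11.5, 11.3, 15.5 and 12.9 CPM (0.40, -0.07 to 0.92).

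Jag1 (chr2:137081456-137116644, minus strand), a Jagged ligand of vessel walls, epithelium and connective tissue, was the most widely spread ligand. Smooth muscle-like cells were its highest class in all 4 libraries, at 416 CPM unamputated and 334, 349.8 and 303 CPM at 12, 17 and 28 dpa. Pericyte-like cells followed in every library, at 231, 180.0, 185 and 179 CPM. In both mural classes each post-amputation library was below the unamputated one, with log2 ratios between -0.25 and -0.46 (-0.94 at 12 dpa in smooth muscle-like cells named from finer clusters), and within 12 mural sub-clusters Jag1 was lower in 12, 10 and 8 at 12, 17 and 28 dpa. Next in the unamputated order came the other keratinocyte-like cells (192 CPM), basal keratinocyte-like cells (183) and Schwann-like cells (163).

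Jag1 was lower than in the unamputated library in 12 of 15 classes at 12 dpa, 12 of 14 at 17 dpa and 11 of 16 at 28 dpa, with the counting interval below 0 in 8, 10 and 10 of them. The median log2 ratio over these classes was -0.32, -0.48 and -0.49. Over all genes and classes it was -0.15, -0.08 and -0.15, with 63.8%, 58.4% and 61.1% of all pairs below 0. Fibroblast-like cells measured 101, 64.2, 55.3 and 40.9 CPM, a step down at each time, and the 28 dpa log2 ratio was -1.29 (-1.43 to -1.19). All 3 main fibroblast-like clusters shared this direction at 28 dpa: cluster 1 went from 91.7 to 41.1 CPM, cluster 5 from 128 to 38.5 and cluster 18 from 90.01 to 57.5, while cluster 5 grew from 141 to 1171 cells.

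Schwann-like cells, the glia of peripheral nerve, held 163 CPM of Jag1 unamputated and 125, 55.7 and 59.3 CPM at 12, 17 and 28 dpa. The first pair of libraries lay clearly above the second, with log2 ratios of -0.38, -1.53 (-1.99 to -1.13) and -1.44 (-1.90 to -1.04). Dissociation-response genes summed to 4196, 3238, 7335 and 6207 CPM in this class, lower at 12 dpa like Jag1 and higher at the later times, and their part in the result was not tested. Basal keratinocyte-like cells measured 183, 179, 131 and 93.2 CPM and suprabasal keratinocyte-like cells 136, 109.8, 82.5 and 92.8 CPM. Tenocyte-like cells measured 59.8, 39.1, 38.5 and 33.4 CPM, with cluster 0 holding 686, 1816, 331 and 372 of their cells and cluster 17 holding 288, 62, 448 and 211. Osteoblast-like cells were higher after amputation, at 28.0 CPM unamputated, 46.7 at 17 dpa and 52.3 at 28 dpa (log2 ratios 0.72 and 0.88), as were B lineage-like cells on few UMIs. Dissociation-response genes in the osteoblast-like class summed to 2034, 3785.5 and 4475 CPM at these times. The 9 keratinocyte markers summed to 21.8, 18.1 and 95.6 CPM and the 8 basal keratinocyte markers to 33.2, 49.6 and 198. The 7 mural markers summed to 567, 326 and 314 CPM. The part of these genes in the result was not tested. At 12 dpa only 19 osteoblast-like cells were found and no comparison was made.

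In capillary or arterial endothelial-like cells Jag1 stood apart at 28 dpa alone. They measured 123, 123, 113 and 61.4 CPM, and the 28 dpa log2 ratio was -0.99 (-1.33 to -0.69). Inside the vascular classes, 6 of 7 vascular sub-clusters compared were lower at 28 dpa. A keratinocyte marker sum in this class was 27.5, 42.6, 23.0 and 94.8 CPM, and its part in the result was not tested.

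Jag2 (chr12:112907819-112929776, minus strand), the other Jagged ligand, was highest in basal keratinocyte-like cells, at 142 CPM (134 to 150) unamputated, and then 123 (111 to 137), 166 (149.8 to 182) and 127 (116 to 138) at 12, 17 and 28 dpa. Capillary or arterial endothelial-like cells came next at 101, 105, 124 and 112 CPM. Both classes were highest at 17 dpa, with log2 ratios of 0.22 (0.06 to 0.39) and 0.30 (0.09 to 0.50). Suprabasal keratinocyte-like cells held little Jag2, with 3.33 CPM (33 UMIs) unamputated and 10.5 CPM (59 UMIs) at 28 dpa, a log2 ratio of 1.40 (1.01 to 2.31). In this class the 19 fibroblast markers summed to 210 and 510 CPM, the 9 pericyte markers to 90.9 and 205 CPM and the 7 mural markers to 18.2 and 46.8 CPM at the same times, and their part in the result was not tested.

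**Figure D2:**
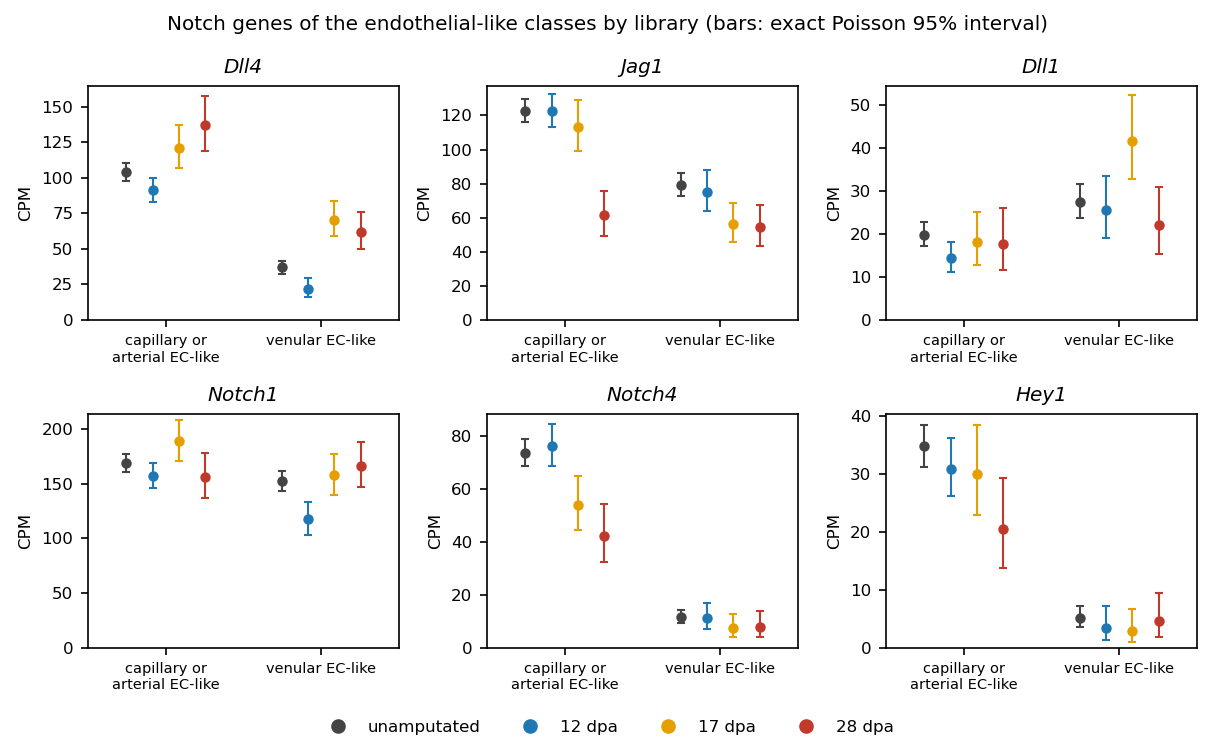
Dll4, Jag1, Dll1, Notch1, Notch4 and Hey1 in CPM (vertical axes, linear, from 0) in capillary or arterial and in venular endothelial-like cells, 1 point per library with its exact 95% Poisson interval. In capillary or arterial endothelial-like cells Dll4 is highest at 28 dpa (137 CPM), where Jag1 (61.4 CPM), Notch4 (42.3 CPM) and Hey1 (20.5 CPM) are lowest.

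Among the receptors, Notch4 (chr17:34564268-34588503, plus strand), the endothelial receptor, measured 73.6 CPM (68.5 to 79.0) unamputated, and then 76.3 (68.8 to 84.5), 53.9 (44.3 to 65.0) and 42.3 (32.4 to 54.2) at 12, 17 and 28 dpa in capillary or arterial endothelial-like cells. The 2 later libraries lay below the 2 earlier ones without overlap of the intervals. The log2 ratio was -0.44 (-0.75 to -0.16) at 17 dpa and -0.79 (-1.20 to -0.43) at 28 dpa. Within vascular sub-clusters it was lower in 5 of 8 at 17 dpa, with a median log2 ratio of -0.20, and in 4 of 5 at 28 dpa. The makeup of the vascular cells differed between libraries: sub-cluster 0, led by Col13a1, Igfbp3, Kcne3 and Esm1 and second highest in Notch4 and Jag1, held 214, 158, 34 and 9 cells, and sub-cluster 4, whose leading genes include keratins, held 64, 50, 72 and 132. Venular endothelial-like cells held 11.5, 11.3, 7.32 and 7.81 CPM. No other class reached 10 CPM in any library.

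Notch1 (chr2:26457903-26516663, minus strand), a receptor of both endothelium and epidermis, had no single home. Lymphatic endothelial-like cells measured 232, 219, 226 and 177 CPM, although the last 2 libraries held only 34 and 38 of these cells. Capillary or arterial endothelial-like cells measured 169, 157, 189 and 156 CPM and the other keratinocyte-like cells 168, 168, 153 and 172 CPM. These 2 classes traded first place between libraries among classes with at least 50 cells throughout. Venular endothelial-like cells held 152, 118, 158 and 167 CPM, basal keratinocyte-like cells 147, 159, 124 and 114 CPM and Schwann-like cells 123, 122, 98.0 and 91.9 CPM. None of these classes differed by as much as 2-fold between libraries.

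Notch2 (chr3:98013527-98150361, plus strand), a broadly used receptor with known roles in myeloid and B cells, was found in nearly every class. Macrophage-like cells measured 220.0 CPM (211 to 229.6) unamputated, and then 111 (102 to 121), 182 (173 to 191) and 171 (164 to 179) at 12, 17 and 28 dpa. The 12 dpa library stood well below the others, with a log2 ratio of -0.97 (-1.12 to -0.84). Nearly all macrophage-like cells at 12 dpa were of cluster 3 (501 cells), in which Notch2 was 216 CPM unamputated and 111 at 12 dpa, whereas at 28 dpa cluster 4 held 1378 of the 1615 cells at 166 CPM.

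Neutrophil-like cells measured 195, 271, 223 and 250 CPM of Notch2, here with all 3 post-amputation libraries above the unamputated one. The class changed in makeup, since cluster 20 held 528 of 1052 cells unamputated at 146 CPM and nearly none at 12 and 28 dpa. Inside cluster 12 Notch2 was 334, 265, 338 and 250 CPM, so the direction at 12 and 28 dpa was reversed within that cluster. Notch2 was below unamputated in 13 of 16 classes at 12 dpa and 15 of 17 at 17 and at 28 dpa, with the interval below 0 in 9, 6 and 10 of them. Its median log2 ratio over classes was -0.41, -0.13 and -0.43, close to the -0.08 of all genes at 17 dpa. Fibroblast-like cells, for example, measured 114, 63.1, 94.2 and 82.0 CPM, tenocyte-like cells 93.4, 57.3, 85.5 and 66.3, and pericyte-like cells 54.7, 39.7, 44.1 and 30.8.

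Notch3 (chr17:32120820-32166852, minus strand), the mural receptor, was measured deeply. Pericyte-like cells held 1096 CPM (1076 to 1116) unamputated, and then 857 (832 to 883), 1164 (1134 to 1194) and 912 (885 to 939) at 12, 17 and 28 dpa. Smooth muscle-like cells held 1041 (1013 to 1070), 1064 (997 to 1134), 957 (921 to 995) and 779 (747 to 813) CPM. The levels differed by less than 2-fold between libraries, although several of the intervals did not overlap. The levels had no common order in the 2 classes: the pericyte-like cells were lowest at 12 dpa and the smooth muscle-like cells at 28 dpa. Log2 ratios were -0.35, 0.09 and -0.27 in pericyte-like and 0.03, -0.12 and -0.42 in smooth muscle-like cells. Within mural sub-clusters Notch3 was higher in 6 and lower in 6 of 12 at 28 dpa, so the lower class values then were not shared by all sub-clusters. The 9 pericyte markers summed to 15484, 10445, 14611 and 13499 CPM in pericyte-like cells, lowest at 12 dpa. In smooth muscle-like cells the same markers summed to 10770, 8451, 7974 and 5476 CPM, lowest at 28 dpa. Their part in the Notch3 result was not tested.

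After thinning each cell to 2000 UMIs, a Notch3 UMI was found in 84.1% (81.7% to 86.3%), 76.7%, 85.1% and 79.3% of pericyte-like cells. The share was 0.333%, 1.09% and 1.64% in neutrophil-like cells at the first 3 times, where it was taken as background. Without thinning the pericyte-like share was 98.3% unamputated, at a median depth of 9554 UMIs. Outside the vessel wall the highest class was the suprabasal keratinocyte-like one, at 93.6, 94.8, 79.7 and 68.7 CPM, and osteoblast-like cells held 42.2 CPM unamputated, 46.5 at 17 dpa and 36.3 at 28 dpa.

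**Figure D3:**
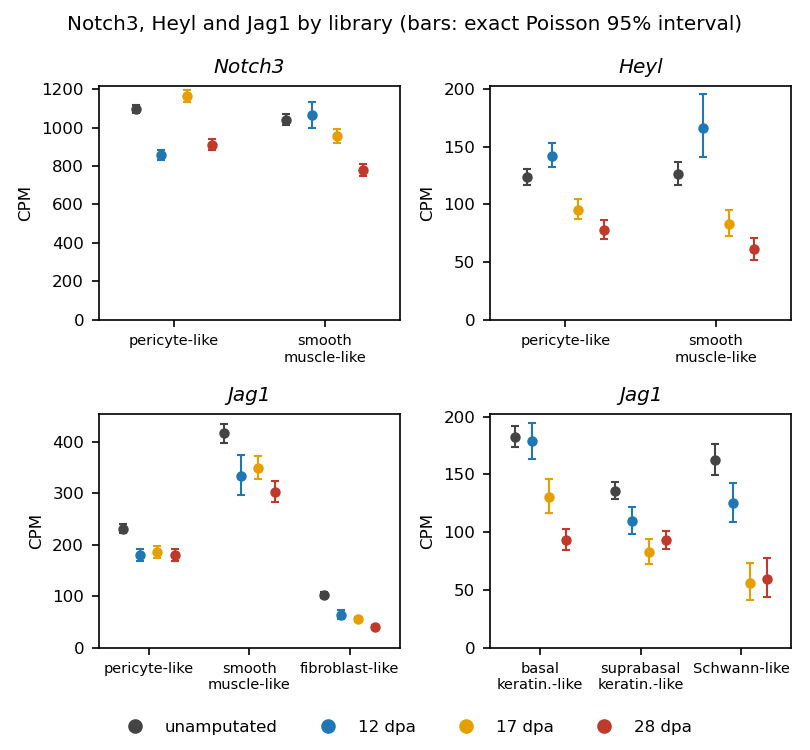
Notch3 and Heyl in pericyte-like and smooth muscle-like cells, and Jag1 in these, fibroblast-like, basal and suprabasal keratinocyte-like and Schwann-like cells, in CPM (vertical axes, linear, from 0), 1 point per library with its exact 95% Poisson interval. Heyl is highest at 12 dpa and lowest at 28 dpa in both mural classes, and Jag1 is below its unamputated level at every time in each class drawn.

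Heyl (chr4:123233556-123249875, plus strand), a Hey-family repressor known as a Notch3 target in mural cells, was lowest at 28 dpa. Pericyte-like cells measured 124 CPM (117 to 130.4) unamputated, and then 142 (132 to 153), 95.2 (86.9 to 104) and 78.0 (70.3 to 86.4) at 12, 17 and 28 dpa. Smooth muscle-like cells measured 126 (117 to 137), 166 (141 to 195), 83.3 (72.9 to 94.8) and 61.1 (52.2 to 71.1) CPM. The order of the 4 class values was the same in both classes, and no interval of the 2 later libraries overlapped the unamputated one. At 28 dpa the log2 ratio was -0.66 (-0.83 to -0.50) in pericyte-like and -1.04 (-1.30 to -0.80) in smooth muscle-like cells.

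The share of thinned pericyte-like cells with a Heyl UMI followed the same order, at 20.2%, 23.2%, 15.3% and 13.2%, as did that of smooth muscle-like cells, at 19.5%, 27.8%, 11.5% and 10.1%. No Heyl UMI was found in 901 thinned unamputated neutrophil-like cells. Pericyte-like cells lay in 2 clusters with different Heyl levels, cluster 2 at 154, 152, 146 and 105 CPM and cluster 13 at 64.0, 77.8, 27.4 and 37.7 CPM. Cluster 13 held 352 of 1048, 92 of 656, 353 of 838 and 413 of 1050 of these cells, and neither cluster alone kept the order of the class. Heyl was lower in 10 of 12 mural sub-clusters at 28 dpa, with a median log2 ratio of -0.37, which is smaller than in either class. Dissociation-response genes summed to 4925, 3552, 6285 and 7586 CPM in pericyte-like and 8691, 5881, 10682 and 15629 CPM in smooth muscle-like cells, an order opposite to that of Heyl. In smooth muscle-like cells the 9 pericyte markers summed to 10770, 8451, 7974 and 5476 CPM and the 10 smooth muscle markers to 8018, 8190.3, 10679 and 11231 CPM, so the pericyte markers were also lowest at 28 dpa. In pericyte-like cells the pericyte markers summed to 15484, 10445, 14611 and 13499 CPM. The part of these markers in the result was not tested.

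Heyl was also found in Schwann-like cells, at 31.1, 48.1, 7.80 and 4.65 CPM from 111, 85, 7 and 4 UMIs. As with Jag1 in this class, the unamputated and 12 dpa libraries were high and the later pair low, with log2 ratios of 0.61, -1.87 and -2.51. Osteoblast-like cells measured 13.02 CPM unamputated, 3.85 at 17 dpa and 1.85 at 28 dpa, from 74, 21 and 5 UMIs. In this class the 7 mural markers summed to 567, 326 and 314 CPM, the 10 smooth muscle markers to 723, 411 and 321 CPM and the 9 pericyte markers to 116, 115 and 128 CPM at the same times, and their part in the result was not tested.

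Hey1 (chr3:8663359-8667256, minus strand), a Hey-family repressor known in the endothelium, was sparse. Endothelial-like cells held 58.3%, 66.3%, 23.4% and 20.3% of its UMIs from unamputated to 28 dpa. Mural cells held 15.9%, 10.2%, 12.8% and 35.4%, and fibroblast-like or tenocyte-like cells 9.67%, 19.1%, 30.5% and 20.8%. Pericyte-like cells measured 6.98, 3.95, 5.37 and 9.83 CPM and smooth muscle-like cells 7.01, 5.62, 3.25 and 7.68 CPM. Capillary or arterial endothelial-like cells measured 34.7 CPM (31.2 to 38.5) unamputated, and then 30.8 (26.1 to 36.1), 29.9 (22.9 to 38.4) and 20.5 (13.8 to 29.2) at 12, 17 and 28 dpa. Only the 28 dpa interval did not overlap the unamputated one, with a log2 ratio of -0.74 (-1.35 to -0.22) from 30 UMIs. Osteoblast-like cells held 13.02, 14.1 and 9.27 CPM unamputated and at 17 and 28 dpa.

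Re-clustering the vascular endothelial-like cells, done after the class values had been seen, showed 6 of these genes at their highest level in 1 sub-cluster of 300 cells. It was led by Pcsk5, Nebl, Gja4 and Sema3g, and the artery marker Gja5 measured 99.0 CPM there and at most 6.99 CPM in any other sub-cluster. In these cells Dll4 measured 177 CPM, Jag1 363, Jag2 231, Notch1 236, Notch4 106 and Hey1 99.95. Each was the highest of the sub-clusters with at least 50 cells; the next highest held 111 CPM of Dll4, 93.1 of Jag1, 156 of Jag2, 186 of Notch1, 80.5 of Notch4 and 34.0 of Hey1. Dll1 differed, being highest in a sub-cluster rich in the venular marker Selp, at 37.3 CPM, though others overlapped it in counting error.

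The arterial-marked sub-cluster held 123, 82, 52 and 43 cells in the 4 libraries. Its Jag1 was 374, 372, 363 and 242 CPM, so the 28 dpa library alone was low, as in the class as a whole. Hey1 was 126, 79.0, 80.5 and 29.1 CPM, the last from 6 UMIs. Over the sub-clusters compared, Hey1 was higher in 3 of 5 at 12 dpa and 4 of 6 at 17 dpa, and at 28 dpa it was lower in 2 of 3, with a median log2 ratio of -0.02. Dll4 was 204, 139.9, 166 and 155 CPM, without the 28 dpa maximum of the whole class, although over the sub-clusters compared Dll4 was higher in 8 of 9 at 17 dpa (median log2 ratio 0.49) and 5 of 7 at 28 dpa (0.44). Notch4 was 113, 104, 101 and 72.7 CPM.

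**Figure D4:**
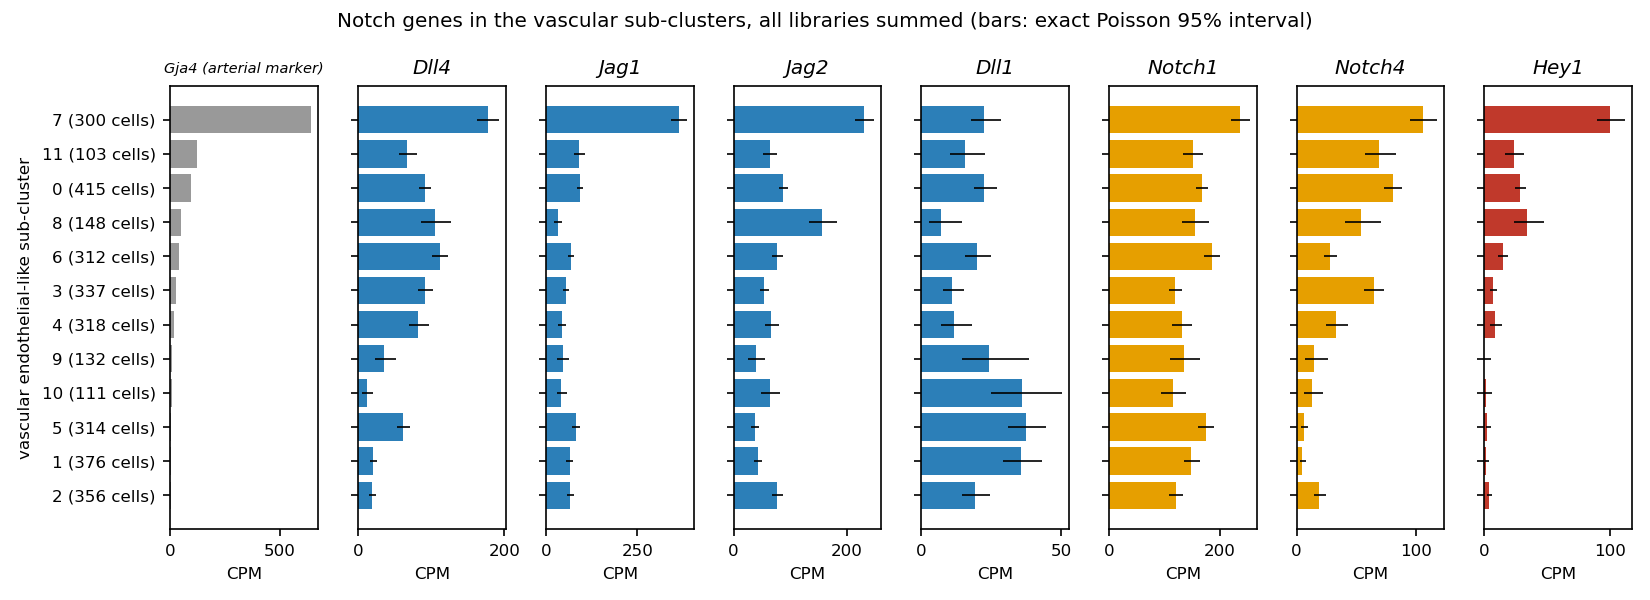
CPM (horizontal axes, from 0) of the arterial marker Gja4 and of 7 members in each sub-cluster of vascular endothelial-like cells with at least 50 cells, all libraries summed; the lines on the bars are exact 95% Poisson intervals. Sub-cluster 7 (300 cells, top row) has the highest Gja4, Dll4, Jag1, Jag2, Notch1, Notch4 and Hey1, while Dll1 is highest in sub-cluster 5.

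Counted over all classes, few members passed 2-fold (among gene-by-class pairs whose higher library reached 10 CPM). At 12 dpa 2 of 74 pairs were at least 2-fold higher and 0 were 2-fold lower, where over all genes 2.31% of pairs were higher and 4.46% lower. Both were Notch3: in basal keratinocyte-like cells it measured 11.04 CPM unamputated and 23.7 at 12 dpa, and in T or NK-like cells 2 UMIs became 8. The basal value turned to a log2 ratio of -0.35 when no doublets were removed. Pericyte markers summed to 27.6 CPM unamputated and 111 CPM at 12 dpa in the T or NK-like class, and to 70.3 and 47.4 CPM in the basal class; their part in the result was not tested.

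At 17 dpa 4 of 78 pairs were higher and 3 lower, against 2.56% and 2.86% of all pairs. The lower ones were Jag1 and Heyl in Schwann-like cells and Heyl in osteoblast-like cells, given above. The higher ones rested on few UMIs: Notch3 in T or NK-like cells (2 and 23 UMIs), B lineage-like cells (0 and 7) and Schwann-like cells (3 and 12), and Jag1 in B lineage-like cells (3 and 11). Pericyte markers summed to 27.6 CPM unamputated and 692 CPM at 17 dpa in the T or NK-like class, 17.2 and 103 CPM in the B lineage-like class and 10.9 and 93.6 CPM in the Schwann-like class. With at least 20 UMIs required in the library with more UMIs, 1 of the 4 higher pairs was left.

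At 28 dpa 5 of 79 pairs were higher and 8 lower, against 4.61% and 7.96% of all pairs, which are close to the members' own 6.33% and 10.1%. The lower pairs were Jag1 in Schwann-like and fibroblast-like cells, Heyl in Schwann-like, osteoblast-like and smooth muscle-like cells, and Notch1 in osteoblast-like (18.5 and 8.52 CPM), tenocyte-like (13 and 5.33 CPM) and T or NK-like cells (64.8 and 28.4 CPM, 6 UMIs at 28 dpa). The higher pairs were Jag2 in suprabasal keratinocyte-like cells, Notch1 in osteoclast-like cells (12.2 and 28.0 CPM), Notch3 in venular endothelial-like cells (1.71 and 17.6 CPM), and Jag1 in neutrophil-like (5 UMIs at 28 dpa) and B lineage-like cells (6 UMIs). In the venular class the pericyte markers summed to 23.9 CPM unamputated and 144 CPM at 28 dpa. Markers of other cell types were also higher in the classes of the 2 higher Jag1 calls. From unamputated to 28 dpa the 9 keratinocyte markers summed to 54.4 and 227.85 CPM in neutrophil-like cells. In the same cells the 7 mural markers summed to 48.9 and 202 CPM and the 19 fibroblast markers to 538 and 2712 CPM. In B lineage-like cells the same sums were 60.03 and 178, 35.5 and 111, and 779 and 2017 CPM, and at 17 dpa 143, 454 and 3324 CPM. The part of these markers in the results was not tested. The members' median log2 ratio was -0.08, -0.12 and -0.37 at the 3 times, beside -0.15, -0.08 and -0.15 over all genes. When each class was rescaled by a median of ratios, 5 pairs were lower at 28 dpa, which moves the split from 5 higher and 8 lower to 7 higher and 5 lower.

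**Figure D5:**
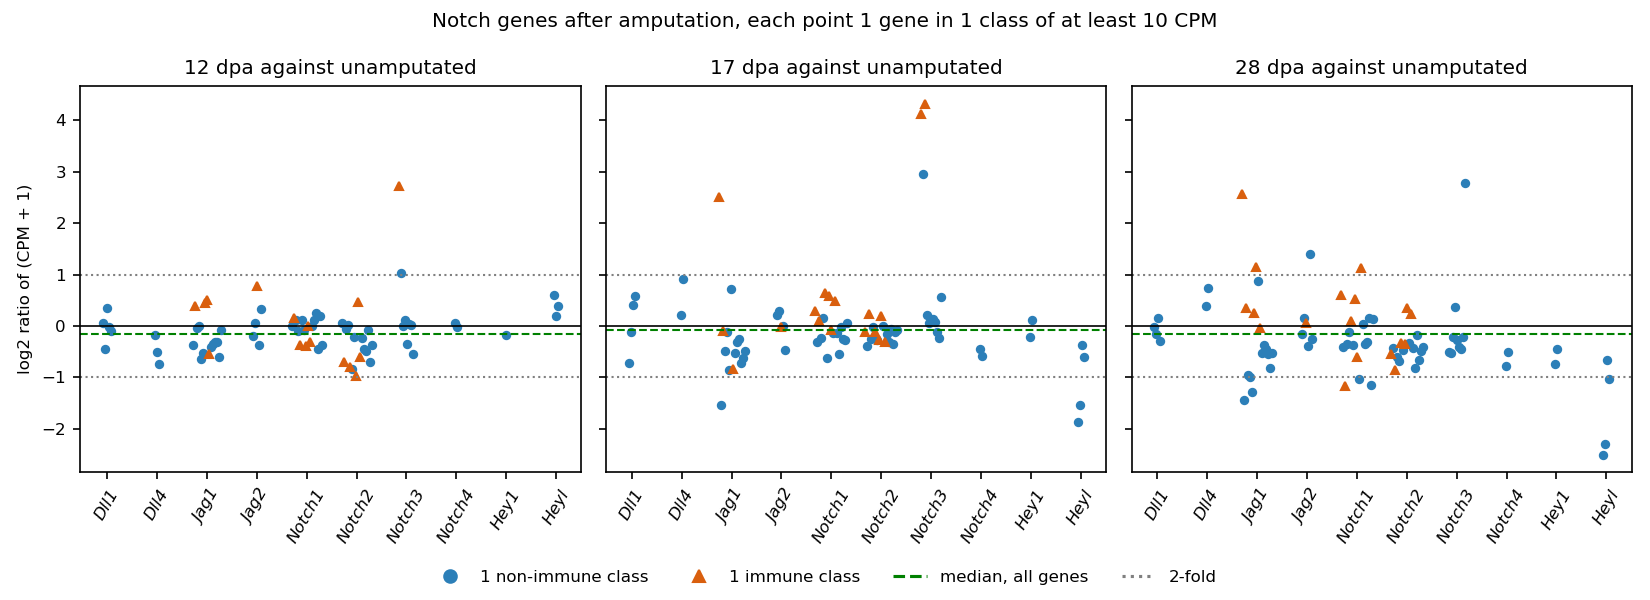
Log2 ratio of (CPM + 1) to the unamputated library (vertical axis) for each member at 12, 17 and 28 dpa, 1 point per class (triangles: immune classes); dotted lines mark 2-fold and the dashed line the median of all genes. Most Jag1 and Notch2 points lie below 0 at every time, and the Heyl points lie above 0 at 12 dpa and below 0 at 17 and 28 dpa.

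Among 43 other genes of the pathway, 39 reached the level minimum in some class at 12 dpa and 40 at 17 and 28 dpa. Of their gene-by-class pairs 4 were at least 2-fold higher and 14 lower of 448 at 12 dpa, 3 and 6 of 481 at 17 dpa and 14 and 25 of 482 at 28 dpa. These are 0.893% and 3.13%, 0.624% and 1.25%, and 2.90% and 5.19% of the pairs, below the shares of all genes given above in each direction and at each time. After rescaling by a median of ratios the higher and lower counts were 8 and 8 at 12 dpa, 4 and 5 at 17 dpa and 18 and 17 at 28 dpa. Nrarp, a target that feeds back on the pathway, measured 53.2, 46.1, 33.3 and 20.5 CPM in capillary or arterial endothelial-like cells, the same order as Hey1 there, with a log2 ratio of -1.34 at 28 dpa. Over vascular sub-clusters Nrarp was mixed, higher in 4 and lower in 5 of 9 at 17 dpa and higher in 3 and lower in 4 of 7 at 28 dpa. In mural cells it did not share the Heyl order: smooth muscle-like cells held 126, 140, 114 and 147 CPM. Hes1, a Notch target that other signals also drive, measured 356, 380, 365 and 651 CPM in smooth muscle-like cells, highest where Heyl was lowest, and Hey2 measured 74.2, 68.5, 98.1 and 80.8 CPM. Dlk1, a non-canonical Delta-like ligand, measured 96.3, 46.4, 94.8 and 25.7 CPM in pericyte-like cells, with log2 ratios of -1.04 at 12 dpa and -1.86 at 28 dpa. Among coactivators, Maml3 was lower at 28 dpa in macrophage-like (-1.16), capillary or arterial endothelial-like (-1.04), dendritic-like (-1.14) and T or NK-like cells (-1.26, 10 UMIs), and Maml2 in basal keratinocyte-like cells (-1.01). At the same time Maml1 was lower in T or NK-like cells (-1.04, 4 UMIs) and Maml2 was higher in neutrophil-like cells (1.73, 11 UMIs).

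Most of the remaining pathway pairs at least 2-fold different lay in immune classes, many of them on few UMIs. Among regulators of receptor turnover, Dtx4 was lower at 28 dpa in fibroblast-like cells (18.0 and 8.33 CPM, log2 ratio -1.03) and osteoclast-like cells (-1.07), and higher in neutrophil-like cells at 12 dpa (2.27) and 28 dpa (1.32, 9 UMIs) and in T or NK-like cells at 28 dpa (1.47, 4 UMIs). Numb was lower in B lineage-like cells at 17 dpa (-1.17) and in neutrophil-like cells at 28 dpa (-1.25, 33 UMIs), and Fbxw7 in T or NK-like cells at 12 dpa (-1.82) and B lineage-like cells at 28 dpa (-1.16). Dtx1 was higher in B lineage-like cells at 17 and 28 dpa (1.08 and 1.12), where Dtx2 was lower (5 UMIs at 17 dpa and 0 at 28 dpa), while Dtx2 and Dtx3 were higher at 28 dpa in neutrophil-like cells from 3 UMIs each and Dtx3 in dendritic-like cells (1.19, 11 UMIs). Lfng, a Fringe glycosyltransferase, was higher in neutrophil-like cells at 12 dpa (1.59, 50 UMIs) and 28 dpa (1.22, 20 UMIs) and lower in T or NK-like cells (-1.24 and -2.27, 11 and 2 UMIs).

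Pofut1, which adds fucose to Notch receptors, was lower in dendritic-like cells at 12 and 17 dpa (-1.54 and -1.31, 7 and 8 UMIs) and in T or NK-like cells at 28 dpa (1 UMI). The sheddases Adam10 and Adam17, which cut the receptor outside the cell, were lower in T or NK-like cells at 28 dpa (-1.39 and -1.51, 11 and 16 UMIs). Of the gamma-secretase genes, which serve the cut within the membrane, Psen2 was lower in T or NK-like cells at 17 dpa (-1.36, 17 UMIs) and Aph1b in neutrophil-like cells at 12 and 28 dpa (2 and 1 UMIs). Mib1, a ubiquitin ligase for ligand endocytosis, was lower at 12 dpa in dendritic-like (-1.03) and osteoclast-like cells (54.5 against 110.4 CPM), and Neurl1b was higher in osteoclast-like cells at 17 dpa (1.13). The corepressor genes Hdac1 (-1.11 at 17 dpa), Spen (-1.24 at 28 dpa) and Kdm5a (129 against 259.7 CPM at 28 dpa) were lower in B lineage-like cells, and Kdm5a also in neutrophil-like cells at 28 dpa (-1.11, 11 UMIs). In neutrophil-like cells the 14 neutrophil markers themselves summed to 282360 CPM unamputated and 49685 and 47612 CPM at 12 and 28 dpa, and in T or NK-like cells the 14 macrophage markers summed to 79.9 CPM unamputated and 593 CPM at 28 dpa. The part of these markers in the results was not tested.

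Across 60 class-by-library points the most alike pairs of members were Dll1 and Jag2 (Pearson r of log2(CPM + 1) 0.87), Dll4 and Notch4 (0.85) and Notch3 and Heyl (0.74). Points of 1 library share its depth and preparation, and these values are descriptions. Over 14444 genes the closest to Heyl were Itga7 (0.95), Tmem196 and Tmem132d (both 0.92), and the closest to Notch3 were Ndufa4l2 (0.93, a pericyte marker used for naming), Ephx3 (0.90) and Parm1 (0.88). For Dll4 they were the overlapping Gm14207 (0.96), Podxl and Robo4 (both 0.95), for Notch4 Gpihbp1 and Kdr (both 0.86 and both naming markers) and Gm14207 (0.85), and for Hey1 Reep2 (0.86), Slc9a3r2 (0.85) and Gm12002 (0.83). For Jag1 they were Tbx3 (0.93), Yap1 and Ttc23 (both 0.91), for Dll1 Eva1a (0.90), Slco2a1 (0.89) and Hoxb9 (0.88), and for Jag2 Hoxb9 (0.82), Nudt14 (0.81) and Stap2 (0.80). Notch1 (Rapgef5, Tab3 and Adgrg1, all 0.80) and Notch2 (Atp6v0d1 at 0.82, Cebpb and Pstpip2 at 0.78) had the least close neighbours.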

How the data were processed

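Per the labels and the submitters' processing notes, the authors deposited 1 filtered matrix of raw UMI counts per library, made with Cell Ranger 7.1.0 on mm10; whether intronic reads or strand were used is not given in the sources used here. Cells were kept from 500 genes and 1000 UMIs upward, if mitochondrial UMIs did not exceed 10%, and the cells with the highest Scrublet doublet scores were removed, at a rate of 0.8% per 1000 barcodes (7.05% to 12.8% of a library). The 4 libraries were clustered together in scanpy 1.11.5 (counts scaled to 10000 UMIs per cell, 2000 variable genes, 30 principal components, 15 neighbours, Leiden resolution 1), without the members, the other Notch pathway genes and the dissociation-response, sex-linked and mitochondrial genes. Clusters were named from fixed markers, at least 3 of them detected in 25% of the cells; the rule that ranks competing names was revised after the clusters were seen.

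Raw counts were summed per class and library and given as CPM. Log2 ratios use a pseudocount of 1 CPM, and their intervals, exact conditional binomial ones, are for the ratio without it. A gene-by-class pair was counted as at least 2-fold different among pairs whose higher library reached 10 CPM and classes of at least 50 cells in both. Shares of cells with a UMI were taken after thinning every cell to 2000 UMIs, with shallower cells left out, and have exact Clopper-Pearson intervals. PCR duplicates are removed by UMIs, but cells of 1 library are not replicates, so no p-value was computed. The CPM scaling and the ratio intervals were tested on Poisson counts simulated from the class sums. The 2-fold cut was applied there without the 10 CPM and 50-cell rules, and the summing of cells was not tested.

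Coordinates come from GENCODE M21 and promoter windows from RefSeq. All 10 members are named, the other pathway genes at least 2-fold different in some class (1 is not reported here), some of those high in a class described, and the 3 genes most correlated with each member. The members, lists, sub-clusterings and ratios described were chosen with earlier results of these data known. Alternatives were other cell filters, no doublet removal, Leiden resolution 2, naming each cell alone, other pseudocounts and minimum levels, equal weight per cell, median-of-ratios scaling and other thinning depths.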

Additional observations from a re-analysis of the deposited data

Results flagged for a closer look

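Notch1 went in different directions in different classes at 28 dpa. Its log2 ratio to the unamputated library was 1.13 in osteoclast-like cells, at 12.2, 9.58, 17.4 and 28.0 CPM from unamputated to 28 dpa. The 14 macrophage markers summed to 2042, 2485, 4926 and 5101 CPM in this class, and macrophage-like cells held 32.2 CPM of Notch1 at 28 dpa; their part in the result was not tested. It was -1.16 in T or NK-like cells, where 6 UMIs lay behind the 28 dpa value, -1.03 in osteoblast-like cells and -1.15 in tenocyte-like cells. From unamputated to 28 dpa the 14 vascular endothelial and 14 neutrophil markers summed to 256 and 61.6, and 225 and 9.48 CPM in the T or NK-like class. In the osteoblast-like class the neutrophil markers summed to 586 and 9.27 CPM and the 7 mural markers to 567 and 314 CPM. The part of these markers in the results was not tested. The difference between the classes was not tested, since each group holds 1 library. In tenocyte-like cells the lower level lay in cluster 0, at 14.0 CPM unamputated and 4.64 CPM at 28 dpa, beside 9.57 and 7.41 CPM in cluster 17.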

How the results depend on the processing

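No paired analysis was possible because each group holds 1 library, and for the same reason no replicate could be left out. Of 914 repeats of the 104 named log2 ratios, 815 lay within the counting interval of the reported ratio and 92 lay outside it. Sign changes were counted only for ratios whose interval excluded no change, and 7 repeats had one. Those 7 were Notch2 in neutrophil-like cells (-0.00064 at 17 dpa under the stricter filter and -0.0818 at 12 dpa with equal weight per cell), Notch1 in suprabasal keratinocyte-like cells (-0.0885 at 28 dpa, stricter filter), Jag1 there (0.0586 at 12 dpa, looser filter), Notch3 in suprabasal (0.0148 at 17 dpa) and basal keratinocyte-like cells (-0.35 at 12 dpa), both with no doublets removed, and Jag2 in basal keratinocyte-like cells (0.0929 at 28 dpa, median-of-ratios scaling). The causes were not tested. Under the stricter filter no class was named basal keratinocyte-like, and the 12 dpa venular and the 12 and 28 dpa neutrophil-like ratios had no value. That scaling shifted ratios by between -0.03 and 0.24 at 12 dpa, by 0.02 and 0.20 at 17 dpa and by -0.14 and 0.26 at 28 dpa.

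The counts were small and 67 of 168 repeats moved by over 1.5 times. With the stricter filter (1000 genes, 2000 UMIs, 5% mitochondrial) 9 members kept 1 highest class, the member counts were 0 higher and 1 lower at 12 dpa, 2 higher at 17 dpa and 2 higher at 28 dpa, and the pathway counts 2 higher at 12 dpa, 12 lower at 17 dpa and 7 higher and 16 lower at 28 dpa. The looser filter gave 8 lower (pathway, 12 dpa), 5 higher (pathway, 17 dpa) and 2 higher (members, 28 dpa). With no doublets removed the member counts were 1 higher and 5 lower at 12 dpa and 2 higher at 17 dpa, and the pathway counts 7 lower at 12 dpa and 6 higher at 17 dpa. Resolution 2 gave 1 lower member at 12 dpa. Naming each cell alone gave members 4 higher and 1 lower at 12 dpa and 7 lower at 17 dpa, and pathway genes 7 higher and 10 lower at 17 dpa. A pseudocount of 5 CPM gave members 1 higher at 12 dpa and 2 higher and 5 lower at 28 dpa, and pathway genes 5 lower at 12 dpa and 0 higher at 17 dpa. Equal weight per cell gave members 4 higher and 1 lower at 12 dpa and pathway genes 5 higher at 17 dpa. Median-of-ratios scaling gave pathway genes 8 higher and 8 lower at 12 dpa and members 5 lower at 28 dpa.

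Without a minimum level, members were 11 higher and 2 lower at 12 dpa, 12 and 9 at 17 dpa and 20 and 14 at 28 dpa, and pathway genes 14 and 25, 12 and 21, and 25 and 51. With a minimum of 50 CPM, members were 0 higher at 12 dpa, 0 and 1 at 17 dpa and 0 and 4 at 28 dpa, and pathway genes 2 and 7, 1 and 3, and 3 higher at 28 dpa. Chosen after seeing the data, a minimum of 20 UMIs in the library with more UMIs left 1 higher member at 12 and at 17 dpa. Leaving out the immune classes, also chosen after seeing the data, left members 1, 1 and 2 higher at 12, 17 and 28 dpa. Pathway genes were then 0 and 2, 0 and 0, and 1 and 6. Thinning to 1000 UMIs, or not at all, moved each of the 24 shares: Notch3 in unamputated pericyte-like cells was 62.4% or 98.3%. Depth limits Hey1, Dll1 and the calls in immune classes, most of which had under 20 UMIs in the post-amputation library.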

Other observations

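Pathway genes were at least 2-fold different in further classes at 28 dpa, given here as values with no common theme tested. Hes1 measured 4.48 CPM unamputated and 47.8 CPM at 28 dpa in neutrophil-like cells (log2 ratio 3.15, 13 UMIs at 28 dpa), 3.80 and 12.7 CPM in dendritic-like cells (1.52, 7 UMIs), 6.40 and 39.1 CPM in osteoclast-like cells (2.44), and 65.3 and 173 CPM in osteoblast-like cells (1.40). It was lower at 17 dpa in macrophage-like cells, at 25.7 and 7.98 CPM (-1.57). Mfng, a Fringe glycosyltransferase that modifies Notch receptors, measured 7.39 and 28.4 CPM in macrophage-like cells (1.81) and 8.20 and 22.8 CPM in osteoclast-like cells (1.37). Aph1c, a gamma-secretase subunit, measured 66.2 and 25.6 CPM in macrophage-like cells (-1.33). Most macrophage-like cells at 28 dpa were of cluster 4 (1378 cells) and most unamputated ones of cluster 3 (801 cells), so the macrophage-like values at 28 dpa compare different clusters. At 17 dpa the mix of clusters also differed from unamputated. Cluster 4 held 47 cells unamputated and 414 at 17 dpa, and cluster 3 held 801 and 518. In neutrophil-like cells, which held 528 cells of cluster 20 unamputated and 0 at 28 dpa, the 19 fibroblast, 7 mural and 9 keratinocyte markers summed unamputated and at 28 dpa to 538 and 2712, 48.9 and 202, and 54.4 and 227.85 CPM. In osteoclast-like cells the 14 macrophage markers summed to 2042 and 5101 CPM. In dendritic-like cells the fibroblast markers summed to 367 and 794 CPM and the 8 basal keratinocyte markers to 54.1 and 176 CPM. There the macrophage markers summed to 919 and 1250 CPM, the keratinocyte markers to 591 and 398 and the neutrophil markers to 787 and 124. In osteoblast-like cells dissociation-response genes summed to 2034 and 4475 CPM, the 9 keratinocyte markers to 21.8 and 95.6 CPM and the 8 basal keratinocyte markers to 33.2 and 198 CPM. The part of these genes in the Hes1 and Mfng values was not tested.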
